A study of Mus musculus with 4 samples.

Results

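The natriuretic peptide system was examined in mouse hearts 28 days after surgery, as 8 genes taken by name from the 55401 genes of the deposited table: the hormone genes Nppa, Nppb and Nppc, the receptor genes Npr1, Npr2 and Npr3, and the processing proteases Corin and Furin. The MI group (n = 2 libraries) had a ligation operation, which stops the blood supply of part of the heart muscle and produces a myocardial infarction. The Sham group (n = 2 libraries) had the chest opened with no ligation. All 4 libraries were made from poly(A) RNA of tissue labelled as heart and taken on day 28. The series title names the plant pigment cyanidin, and no treated heart was analysed here. The sources used here give no strain, sex, age or number of animals per library. The design text speaks of infarcted tissue and of normal left ventricle, and the labels do not say which region each library came from.

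The heart is an endocrine organ. Muscle cells of the atria store atrial natriuretic peptide (ANP, from Nppa) in granules and release it when stretched, and ventricular muscle cells make ANP in fetal life and again under load or after injury. Brain natriuretic peptide (BNP, from Nppb) is made by stressed ventricular muscle, among other sources. C-type natriuretic peptide (CNP, from Nppc) is mainly a product of endothelium and growing cartilage. ANP and BNP act on the receptor guanylyl cyclase encoded by Npr1 and CNP on that encoded by Npr2. Both receptors make cyclic GMP, which relaxes vessels and, through the kidney, promotes salt loss. The receptor encoded by Npr3 has no cyclase domain and clears the peptides from the circulation. Corin, a membrane protease of heart muscle, cuts the ANP precursor, and furin cuts the BNP precursor.

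The libraries were checked first, because they differed in ways their labels do not give. Total estimated counts were 72857907 and 75979320 in MI libraries 1 and 2 and 72485370 and 66624106 in Sham libraries 1 and 2, at an apparent 4 counts per fragment. Heart muscle genes were abundant in all 4: the ventricular light chain gene Myl2 had 2200 and 2573 FPKM in MI libraries 1 and 2 and 2289 and 2425 FPKM in Sham libraries 1 and 2 (FPKM is a level that takes account of transcript length and of depth). The 9 atrial marker genes summed to 30.7 and 23.2 FPKM in MI libraries 1 and 2, against 15.5 and 1583 FPKM in Sham libraries 1 and 2. The 6 adipocyte markers summed to at most 0.43 FPKM in both MI libraries and in Sham library 1, and to 156 FPKM in Sham library 2. The 7 lung epithelial markers summed to 288 and 0.17 FPKM in MI libraries 1 and 2, against 0.12 and 0.86 FPKM in the Sham libraries. Sham library 2 thus carried atrial and fat transcripts and MI library 1 lung transcripts, so the 8 genes are given library by library, and their differences also without these libraries.

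The start regions of Nppa and Nppb are shown because these hormone genes, which lie side by side on chromosome 4 with starts 14.9 kb apart, had the widest ranges over the libraries of the 8. Each sequence is the 250 bases before the RefSeq start on the plus strand (build GRCm38.p6), at chr4:148000472-148000721 for Nppa and chr4:147985650-147985899 for Nppb. Capitals mark 4 motifs searched on both strands: the TATA box letters TATAAA, the GATA factor letters GATAA, the Nkx2-5 letters TNAAGTG and the MCAT letters GGAATG, which TEAD factors bind.
Nppa: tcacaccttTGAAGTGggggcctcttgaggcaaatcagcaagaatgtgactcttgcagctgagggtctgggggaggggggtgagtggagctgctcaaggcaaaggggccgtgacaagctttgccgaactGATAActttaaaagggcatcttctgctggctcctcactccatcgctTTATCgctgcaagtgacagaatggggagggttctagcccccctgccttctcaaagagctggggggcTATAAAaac
Nppb: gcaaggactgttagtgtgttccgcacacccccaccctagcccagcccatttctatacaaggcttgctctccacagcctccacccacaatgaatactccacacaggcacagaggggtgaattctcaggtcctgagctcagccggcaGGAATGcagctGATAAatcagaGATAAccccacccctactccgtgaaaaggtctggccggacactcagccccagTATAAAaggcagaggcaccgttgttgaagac

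Both windows held 2 matches to GATAA, at 121 and 75 bases before the start in Nppa (the second on the opposite strand) and at 94 and 83 bases before it in Nppb. Of 32851 RefSeq promoter windows of the same length, 22.6% held GATAA at least once and 4.28% held it 2 times or more. The windows of the other 6 genes held no match to it. TATAAA stood in both windows (12.4% of all windows), TNAAGTG in that of Nppa (10.1%) and GGAATG in that of Nppb (12.6%). Of the other windows, those of Nppc and Furin held TATAAA and that of Furin TNAAGTG. No matches overlapped. These are matches of letters, not measured binding. The deposited row of Nppb starts at 147985788, inside the window shown, so the table and RefSeq place its start differently. The Nppb matches, from 105 to 31 bases before the RefSeq start, all lie after the deposited start.

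In the comparison of MI with Sham hearts, 7 of the 8 genes had enough counts to be tested. In the quasi-likelihood test of edgeR 0 of them had a Benjamini-Hochberg adjusted p below 0.05, and 0% of all 18475 genes tested did (the smallest was 0.185). Before adjustment 2 of the 7 had a p below 0.05, Nppb and Npr1, both higher in MI, where the share over all genes was 11.6% in either direction and 7.12% for higher in MI. On the CPM scale (counts scaled to a common library size) the 2 MI values exceeded both Sham values for Nppb and Npr1, against 24.9% of all genes tested, and lay below both for 0, against 21.9%. DESeq2, run as an alternative, called 1 of the 7, Nppb (adjusted p = 0.035), where it called 3.44% of all genes.

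**Figure D1:**
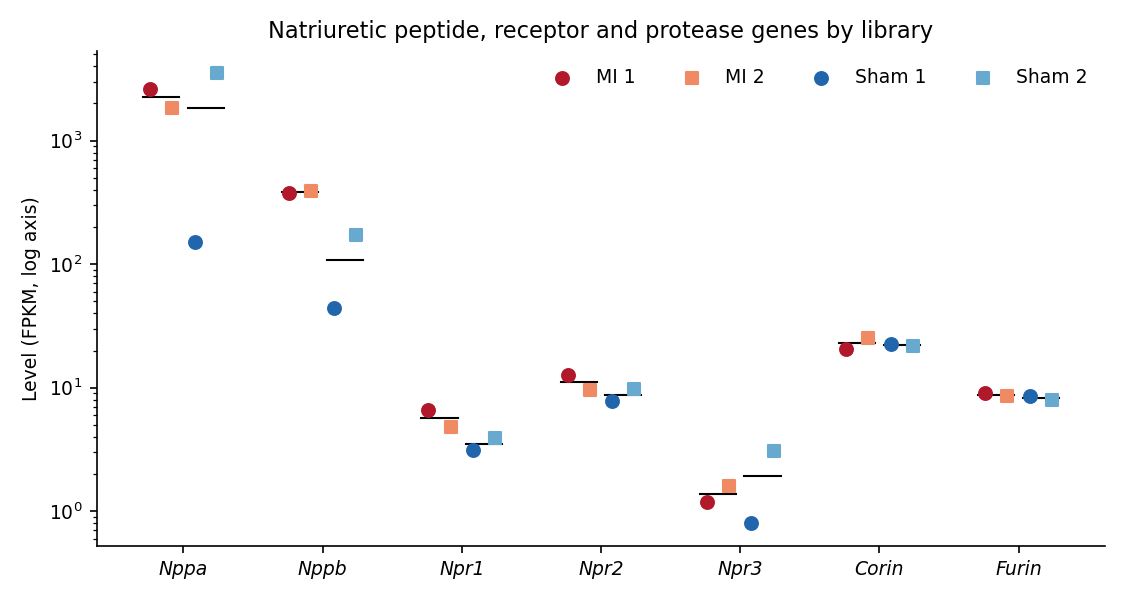
Level of each detected gene in FPKM on a log axis, 1 point per library (MI red and orange, Sham dark and light blue), with a black line at the mean of each group of 2. Nppa spans 151 to 3515 FPKM with the MI libraries between the Sham libraries, Nppb is higher in both MI libraries (377 and 392 FPKM) than in either Sham library, and Corin and Furin lie nearly level.

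Nppa, the ANP precursor gene (ENSMUSG00000041616, chromosome 4, 148000722 to 148002079, plus strand, GRCm38), was the most abundant of the 8 in every library. It had 2632 and 1855 FPKM in MI libraries 1 and 2, against 151 and 3515 FPKM in Sham libraries 1 and 2. The Sham libraries thus lay on either side of both MI libraries and were 23.2-fold apart, while the MI libraries were 1.42-fold apart. Ranked by FPKM among all genes, Nppa stood at 28 and 34 in the MI libraries, and at 200 and 25 in Sham libraries 1 and 2. The group means were 2244 ± 549 FPKM in MI and 1833 ± 2379 FPKM in Sham (SD, n = 2 each), and the log2 difference was 0.13 ± 1.24 (SE; edgeR adjusted p = 0.98), with a 95% confidence interval of -3.09 to 3.34.

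The Nppa result turned on which Sham library was used. Set against Sham library 1 alone, MI libraries 1 and 2 were 13.4-fold and 10.6-fold higher on the CPM scale, and the fit without Sham library 2 gave a log2 difference of 3.58 ± 0.29 (edgeR adjusted p = 0.075). Set against Sham library 2 alone, they were at 0.640 and 0.505 of its level, and the fit without Sham library 1 gave -0.80 ± 0.26 (adjusted p = 0.26). Without MI library 1, which held the lung transcripts, the difference was -0.05 ± 1.75. In limma on log2(FPKM + 1), which averages on the log scale, it was 1.59. In the fits with a library left out, the lone library of a group was assumed to vary like the other group. Of all these fits, 0 passed the threshold.

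Of the 9 atrial markers, 7 had their highest level in Sham library 2. Myl7, the atrial light chain gene, had 1.20 and 0.41 FPKM in MI libraries 1 and 2, against 0.46 and 1128 FPKM in Sham libraries 1 and 2. Bmp10, a growth factor of atrial muscle, had 16 and 12 counts in the MI libraries, against 0 and 18757 in the Sham libraries. Sln, the sarcolipin gene of atrial muscle, had 11 and 0 counts in the MI libraries, against 0 and 11604 in the Sham libraries. In both MI libraries and Sham library 1 these 3 markers were at or near 0. Other genes of the list were not: Dkk3 had 9.49 and 6.33 FPKM in MI libraries 1 and 2, against 0.41 and 38.5 FPKM in Sham libraries 1 and 2, the order seen for Nppa. The potassium channel gene Kcna5 had 13.6 and 10.7 FPKM in the MI libraries, against 8.12 and 9.02 FPKM in the Sham libraries. Nr2f2, a transcription factor gene, had 1.35 and 1.45 FPKM in the MI libraries, against 0.58 and 0.69 FPKM in the Sham libraries. The last 2 were thus highest in MI, and the part of atrial tissue in the Nppa levels was not tested. Relative to Myl2, per length, the Nppa level was 1.20 and 0.721 in MI libraries 1 and 2, against 0.0662 and 1.45 in Sham libraries 1 and 2. In bulk tissue, more cells that make a transcript and more transcript per cell cannot be told apart.

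**Figure D2:**
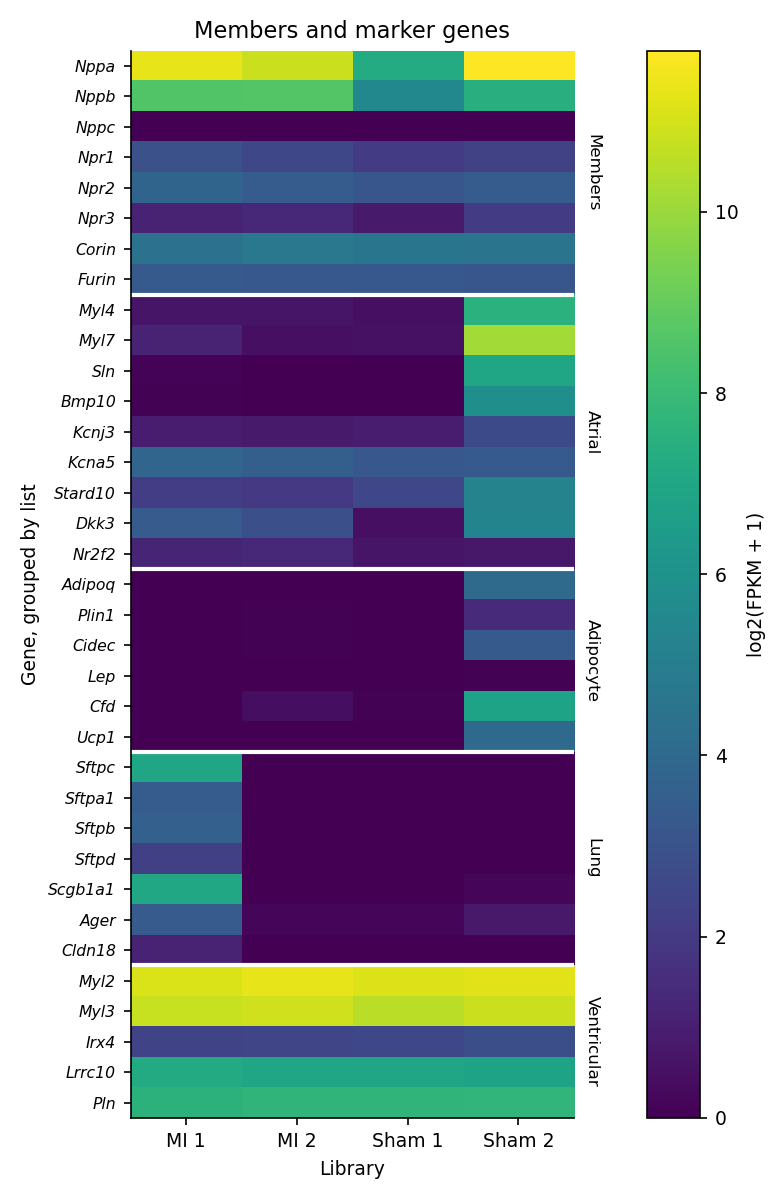
Heat map of log2(FPKM + 1) for the 8 genes and for the atrial, adipocyte, lung and ventricular marker genes (rows) in the 4 libraries (columns). Of the 9 atrial markers 7 are brightest in Sham library 2, the exceptions being Kcna5 and Nr2f2, as are the adipocyte markers (Lep only at 0.05 FPKM), while lung markers are brightest in MI library 1, and Nppa is bright in both MI libraries, where Myl7 is at 1.20 and 0.41 FPKM.

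Nppb, the BNP precursor gene (ENSMUSG00000029019, chromosome 4, 147985788 to 147987205, plus strand), was higher in both MI libraries than in either Sham library. It had 377 and 392 FPKM in MI libraries 1 and 2, against 44.6 and 173 FPKM in Sham libraries 1 and 2. The 4 folds of an MI over a Sham library on the CPM scale ran from 1.87 (MI library 1 over Sham library 2) to 7.59 (MI library 2 over Sham library 1). The MI libraries were close to each other, and the Sham libraries were 3.87-fold apart in FPKM. The log2 difference was 1.65 ± 0.59 (SE; edgeR unadjusted p = 0.040, adjusted p = 0.41).

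Since both MI values lay above both Sham values, leaving out 1 library could change the size of the Nppb difference but not its sign. Without Sham library 2, which held the atrial transcripts, it was 2.82 ± 0.20 (edgeR adjusted p = 0.075). Without Sham library 1 it was 1.01 ± 0.19 (adjusted p = 0.15). Without MI library 1 it was 1.76 ± 0.79, and without MI library 2 it was 1.54 ± 0.80. Relative to the ventricular gene Myl2, per length, the Nppb level was 0.171 and 0.152 in MI libraries 1 and 2, against 0.0195 and 0.0712 in Sham libraries 1 and 2. Myl2 ran only from 2200 to 2573 FPKM over the libraries, so this ratio could not make the Nppb groups overlap. The 5 fibroblast markers moved in the same direction, with a summed level of 243 and 164 FPKM in MI libraries 1 and 2, against 65.3 and 94.1 FPKM in Sham libraries 1 and 2. For all 5 the groups did not overlap, with MI higher (24.9% of all genes), and their part in the differences of Nppb and Npr1 was not tested. The part of atrial tissue in the Nppb level of Sham library 2 was not tested either.

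The balance of the 2 hormone genes differed between libraries. The level of Nppb, per length, was 14.3% and 21.1% of that of Nppa in MI libraries 1 and 2, against 29.4% and 4.91% in Sham libraries 1 and 2. The lowest share was in the library with atrial transcripts and the highest in the other Sham library. Nppa was the more abundant of the pair in all 4 libraries.

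Nppc, the CNP precursor gene (ENSMUSG00000026241, chromosome 1, 86666291 to 86670571, minus strand), had 0 counts in all 4 libraries and was the member left untested. A count of 0 allows up to 3 fragments, or 12 counts, which is 0.165 and 0.158 CPM of the total in MI libraries 1 and 2, and 0.166 and 0.180 CPM in Sham libraries 1 and 2. The floor covers counting error only, and CNP transcript below it was not detectable at this depth.

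**Figure D3:**
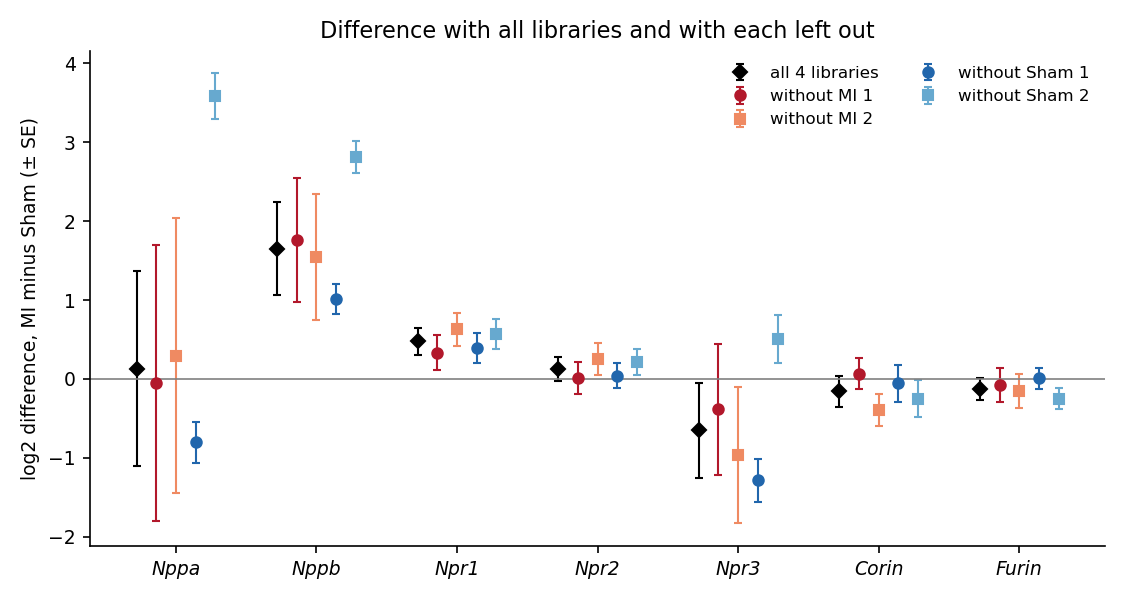
The log2 difference, MI minus Sham, with its SE from edgeR for each tested gene, with all 4 libraries (black) and with each library left out (colours). Nppa spans -0.80 to 3.58 and Npr3 spans -1.29 to 0.50 by which Sham library is left out, while Nppb, Npr1 and Npr2 stay above 0 in all 5 fits. For Nppb and Npr1 this follows from both MI values lying above both Sham values.

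Among the receptors, Npr1 had the higher level in MI and Npr2 and Npr3 overlapped between the groups. Npr1, the ANP and BNP receptor gene (ENSMUSG00000027931, chromosome 3, 90450591 to 90465866, minus strand), had 6.58 and 4.79 FPKM in MI libraries 1 and 2, against 3.11 and 3.88 FPKM in Sham libraries 1 and 2. Its log2 difference was 0.48 ± 0.17 (edgeR unadjusted p = 0.038, adjusted p = 0.40), with a 95% confidence interval of 0.04 to 0.92. The smallest gap between the groups was close to the gap within MI. MI library 2 was 1.18-fold above Sham library 2 on the CPM scale, and MI library 1 was 1.22-fold above MI library 2. The largest gap between the groups, MI library 1 over Sham library 1, was 1.63-fold.

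Npr1 is made in endothelium, lung and fat, among other tissues. The 5 endothelial markers summed to 169 and 133 FPKM in MI libraries 1 and 2, against 88.6 and 101 FPKM in Sham libraries 1 and 2, and for each of the 5 the groups did not overlap, with MI higher (24.9% of all genes). MI library 1, with the highest Npr1, was the library with lung transcripts. Without it the log2 difference of Npr1 was 0.33 ± 0.22 (edgeR unadjusted p = 0.22). The part of endothelial or lung cells in the Npr1 difference was not tested.

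Npr2, the CNP receptor gene (ENSMUSG00000028469, chromosome 4, 43631935 to 43651244, plus strand), was the most abundant receptor in every library. It had 12.7 and 9.62 FPKM in MI libraries 1 and 2, against 7.79 and 9.77 FPKM in Sham libraries 1 and 2. The groups overlapped, and the log2 difference was 0.12 ± 0.15 (edgeR adjusted p = 0.78), with a 95% confidence interval of -0.26 to 0.51. It was 0.0092 without MI library 1 and 0.21 without Sham library 2. The Npr1 level was 51.9% and 49.8% of that of Npr2 in MI libraries 1 and 2, against 39.9% and 39.7% in Sham libraries 1 and 2. That ratio, which was not among those planned, differed little within each group and was higher in both MI libraries.

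Npr3, the clearance receptor gene (ENSMUSG00000022206, chromosome 15, 11839896 to 11907287, minus strand), was the least abundant receptor. It had 1.19 and 1.59 FPKM in MI libraries 1 and 2, against 0.80 and 3.09 FPKM in Sham libraries 1 and 2. As for Nppa, the Sham libraries lay on either side of both MI libraries. The log2 difference was -0.65 ± 0.61 (edgeR adjusted p = 0.71), 0.50 ± 0.31 without Sham library 2 and -1.29 ± 0.28 without Sham library 1 (adjusted p = 0.47 and 0.18). Without MI library 1 it was -0.39, and in limma on log2(FPKM + 1) it was -0.19. The receptor is abundant in fat and endocardium, and Sham library 2, with the highest Npr3, was the library with adipocyte transcripts: Adipoq, the adiponectin gene, had 0 counts in MI libraries 1 and 2, against 0 and 1602 in Sham libraries 1 and 2. Their part in the Npr3 level was not tested. The ratio of Npr1 to Npr3 was 5.53 and 3.01 in MI libraries 1 and 2, against 3.89 and 1.26 in Sham libraries 1 and 2. That of Npr2 to Npr3 was 10.7 and 6.05 in the MI libraries, against 9.74 and 3.16 in the Sham libraries. Both ratios overlapped between the groups.

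Both protease genes overlapped between the groups on the CPM scale. Corin (ENSMUSG00000005220, chromosome 5, 72300025 to 72504473, minus strand) had 20.7 and 25.5 FPKM in MI libraries 1 and 2, against 22.6 and 21.9 FPKM in Sham libraries 1 and 2. Its log2 difference was -0.16 ± 0.20 (edgeR adjusted p = 0.80; 95% confidence interval -0.67 to 0.36), and the sign turned to 0.046 in limma on log2(FPKM + 1), to 0.047 with a pseudocount of 0.1 and to 0.064 without MI library 1. Without Sham library 2 it was -0.25. Furin (ENSMUSG00000030530, chromosome 7, 80388585 to 80403322, minus strand) had 9.04 and 8.55 FPKM in MI libraries 1 and 2, against 8.52 and 7.92 FPKM in Sham libraries 1 and 2, just apart in FPKM and overlapping in CPM. Its log2 difference was -0.13 ± 0.14 (edgeR adjusted p = 0.76; 95% confidence interval -0.50 to 0.24) and its sign turned to 0.088 in limma on log2(FPKM + 1), to 0.097 with a pseudocount of 0.1, to 0.015 with mitochondrial transcripts left out and no TMM, and to 0.0073 without Sham library 1. It was -0.077 without MI library 1 and -0.25 without Sham library 2. In these limma fits the median difference of all genes was 0.10 and 0.20, and it was 0.14 in the fit with no TMM, so Corin and Furin lay below that median in all 3. Corin was 2.29 and 2.98 times as abundant as Furin, per length, in MI libraries 1 and 2, and 2.65 and 2.77 times in Sham libraries 1 and 2.

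By level, the order in both MI libraries and in Sham library 2 was Nppa, Nppb, Corin, Npr2, Furin, Npr1 and Npr3, and in Sham library 1 Furin stood before Npr2. Npr2 and Furin were the neighbours closest to each other, with means of 11.2 ± 2.16 and 8.80 ± 0.35 FPKM in MI and of 8.78 ± 1.40 and 8.22 ± 0.42 FPKM in Sham (SD, n = 2 each). In Sham their gap was within the spread. Nppa and Nppb also overlapped over the 4 libraries, since Nppa in Sham library 1 was below Nppb in 3 libraries.

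The neighbours of the hormone genes were read for the same pattern. Within 100 kb of Nppa and Nppb the table has 12 other genes, of which 9 were tested. Clcn6, a chloride and proton exchanger gene, had 2.25 and 2.00 FPKM in MI libraries 1 and 2, against 0.56 and 1.15 FPKM in Sham libraries 1 and 2. Its log2 difference was 1.11 ± 0.32 (edgeR unadjusted p = 0.020, adjusted p = 0.35), and it was 1 of the 9 at an unadjusted p under 0.05, where 11.6% of all genes were. On the other side Plod1, a collagen lysyl hydroxylase gene, had 20.9 and 14.1 FPKM in the MI libraries, against 10.9 and 10.5 FPKM in the Sham libraries. For Clcn6 and Plod1 the groups did not overlap, with MI higher (24.9% of all genes). Gm13054, which overlaps Nppa by 989 bases on the opposite strand, had 169 and 148 counts in the MI libraries, against 15 and 223 in the Sham libraries, the order seen for Nppa. These were 0.0932% and 0.111% of the Nppa counts in MI libraries 1 and 2, and 0.145% and 0.101% in Sham libraries 1 and 2. The sources used here do not say whether the counting used strand, so reads of the pair cannot be told apart.

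The genes with patterns most like those of 3 members were found by the root mean square difference between centred log2(FPKM + 1) profiles over the 4 libraries. For Nppb, among 4483 genes with a mean of at least 5 FPKM, the nearest were Fmod (0.33), Prelp (0.40), Gm10362 (0.42), Lum (0.46) and Col15a1 (0.47). Of these Fmod, Prelp and Lum encode small leucine-rich proteoglycans of the matrix and Col15a1 a collagen chain, and Lum is among the fibroblast markers given above. For Nppa they were Adnp (0.53), Mylk4 (0.69), Dkk3 (0.69), Sumo2 (0.79) and Gm10362 (0.91). Dkk3 is among the atrial markers. Adnp had 8 counts in Sham library 1 and 2987 or more in each of the others. For Npr3, among 10713 genes with a mean of at least 1 FPKM, the nearest were Kidins220 (0.07), Gm9762 (0.08), Aldh1b1 (0.09), Slc20a1 (0.09) and Myocd (0.09). With 4 libraries many genes share a pattern, and the measure is a description.

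Genes around the peptides were read as 4 lists, and 0 of them passed the adjusted threshold in edgeR, where 0% of all genes did. Of 9 tested genes of peptide processing and breakdown, 1 was higher and 0 lower at an unadjusted p under 0.05 (7.12% and 4.51% of all genes), with a median log2 difference of 0.11 against 0.00 for all genes. The higher gene was Pcsk6, the convertase that activates corin, with 11.8 and 8.21 FPKM in MI libraries 1 and 2, against 5.09 and 6.23 FPKM in Sham libraries 1 and 2 (log2 difference 0.59 ± 0.17; edgeR unadjusted p = 0.019, adjusted p = 0.34). The most abundant of the list were Pam, which amidates peptides and is a main granule protein of atrial muscle, and Ece1, an endothelin converting enzyme. Pam had 30.7 and 26.9 FPKM in MI libraries 1 and 2, against 20.6 and 71.7 FPKM in Sham libraries 1 and 2, so that, as for Nppa, both MI libraries lay between the Sham libraries. Ece1 had 18.6 and 14.7 FPKM in the MI libraries, against 11.0 and 16.5 FPKM in the Sham libraries, with overlapping groups. The median of the list was -0.23 without MI library 1 and 0.29 without Sham library 2.

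Of the other guanylyl cyclases and receptor ligands, 5 of 10 genes in the table were tested. At an unadjusted p under 0.05, 1 was higher and 0 lower (7.12% and 4.51% of all genes). Gucy1b1, the beta subunit of the nitric oxide receptor, had 5.97 and 5.34 FPKM in MI libraries 1 and 2, against 3.17 and 3.18 FPKM in Sham libraries 1 and 2 (log2 difference 0.61 ± 0.14; edgeR unadjusted p = 0.0086, adjusted p = 0.32). Its partner subunit gene Gucy1a1 had 3.57 and 2.69 FPKM in the MI libraries, against 1.65 and 2.85 FPKM in the Sham libraries, with overlapping groups. The median of the list was 0.12, and 0.61 without Sham library 2.

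Of 17 cyclic GMP effectors, 3 were higher and 0 lower at an unadjusted p under 0.05 (7.12% and 4.51% of all genes), with a median log2 difference of 0.02 (0.34 without Sham library 2). Rgs4, a brake on G protein signalling, had 7.58 and 6.65 FPKM in MI libraries 1 and 2, against 4.35 and 3.10 FPKM in Sham libraries 1 and 2 (log2 difference 0.70 ± 0.25; edgeR adjusted p = 0.40). Pde1a, a calcium-activated phosphodiesterase gene, had 2.18 and 1.89 FPKM in the MI libraries, against 1.02 and 0.62 FPKM in the Sham libraries (log2 difference 1.07 ± 0.33; adjusted p = 0.36). Kcnma1, a potassium channel gene, had 99 and 56 counts in the MI libraries, against 8 and 19 in the Sham libraries, near the floor of 12. Over the list, 6 of 17 genes had both MI values above both Sham values (24.9% of all genes) and 3 had both below (21.9%). Of the most abundant of the list, the phosphodiesterase gene Pde2a had 14.2 and 11.9 FPKM in the MI libraries, against 9.28 and 6.17 FPKM in the Sham libraries (log2 difference 0.51 ± 0.26). Rgs2, whose product is a target of the cyclic GMP kinase, had 5.61 and 7.14 FPKM in the MI libraries, against 5.33 and 18.7 FPKM in the Sham libraries (log2 difference -1.08 ± 0.56).

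**Figure D4:**
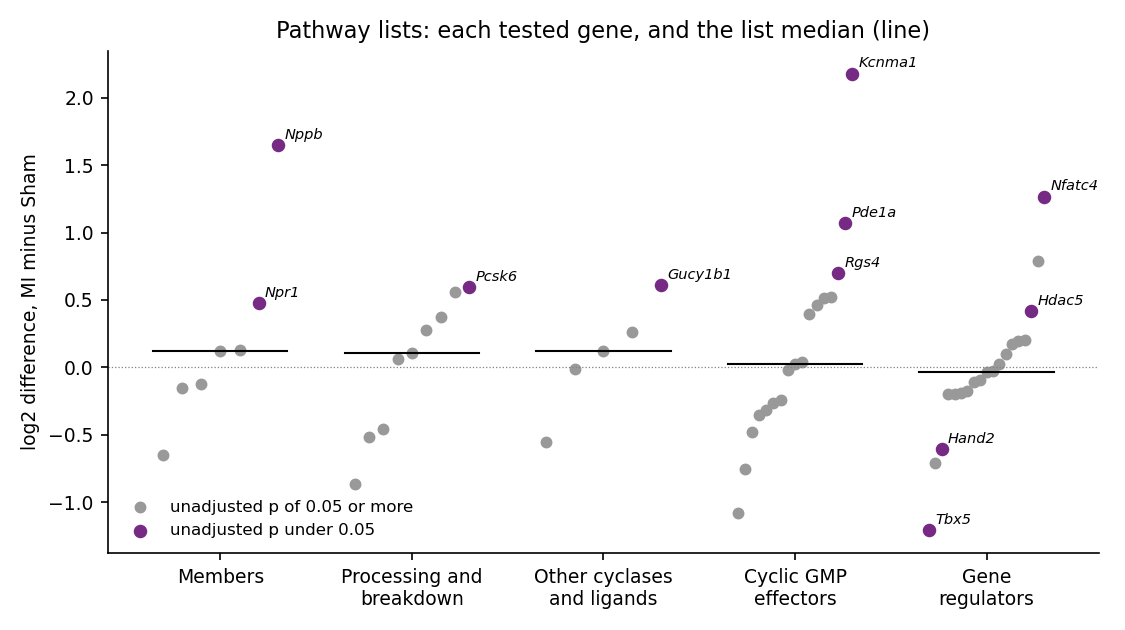
The log2 difference, MI minus Sham, of each tested gene (points) in the 8 genes and in 4 pathway lists, with the list median as a line and genes at an unadjusted p under 0.05 in purple. Nppb, Npr1, Pcsk6, Gucy1b1, Rgs4, Pde1a and Kcnma1 lie above 0, regulators lie on both sides, and the medians run from -0.04 to 0.12.

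Of 19 tested regulators of the natriuretic peptide genes, 2 were higher and 2 lower at an unadjusted p under 0.05 (7.12% and 4.51% of all genes), and the median log2 difference was -0.04 (0.08 without Sham library 2). Tbx5, a T-box factor of the atria and left ventricle, had 3.00 and 2.47 FPKM in MI libraries 1 and 2, against 4.68 and 6.23 FPKM in Sham libraries 1 and 2 (log2 difference -1.21 ± 0.16; edgeR adjusted p = 0.20). Hand2, a factor of heart development, had 15.6 and 15.2 FPKM in the MI libraries, against 17.9 and 22.7 FPKM in the Sham libraries (log2 difference -0.61 ± 0.14; adjusted p = 0.31). For both, the MI libraries lay below both Sham libraries (21.9% of all genes) and Sham library 2, with the atrial transcripts, was the highest of the 4. Over the list, 5 of 19 genes had both MI values below both Sham values in CPM (21.9% of all genes). Both lay above for 3 (24.9%). Nfatc4, which calcineurin activates, had 1.44 and 0.85 FPKM in the MI libraries, against 0.37 and 0.44 FPKM in the Sham libraries (log2 difference 1.27 ± 0.29; adjusted p = 0.31). Hdac5, a deacetylase that holds back MEF2 factors, had 7.23 and 6.52 FPKM in the MI libraries, against 4.30 and 4.53 FPKM in the Sham libraries (log2 difference 0.42 ± 0.12; adjusted p = 0.34). The abundant Ankrd1, a stretch-responsive cofactor, had 688 and 324 FPKM in the MI libraries, against 233 and 524 FPKM in the Sham libraries, with overlapping groups.

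The factors named for the letters in the start regions were looked at after their values were seen. Gata4 had 12.6 and 12.9 FPKM in MI libraries 1 and 2, against 11.8 and 10.6 FPKM in Sham libraries 1 and 2, with a log2 difference of -0.04 ± 0.16 and overlapping groups in CPM. Gata6 had 4.13 and 4.25 FPKM in the MI libraries, against 3.87 and 4.41 FPKM in the Sham libraries (log2 difference -0.20 ± 0.14). Its groups overlapped in FPKM, while in CPM both MI values lay below both Sham values (21.9% of all genes). Nkx2-5 had 9.98 and 8.81 FPKM in the MI libraries, against 8.05 and 9.22 FPKM in the Sham libraries (log2 difference -0.10 ± 0.14). It overlapped in FPKM, while in CPM both MI values lay below both Sham values (21.9% of all genes). Tead1, a TEAD factor, had 5.97 and 0.39 FPKM in the MI libraries, against 0.52 and 2.58 FPKM in the Sham libraries, with overlapping groups and a log2 difference of 0.79 ± 1.28.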

How the data were processed

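Libraries of poly(A) RNA marked the second strand with U and were sequenced from both ends, per the labels' protocols. The deposited table gives an estimated count and an FPKM per gene and library, per the file headers. FPKM as deposited are levels per transcript length and depth. Estimated counts are whole numbers as deposited. Low values pile up at multiples of 4 (1174 genes with a count of 4 and 331 with 3 in MI library 1), so 12 counts were taken as 3 fragments. The submitters' processing notes name HISAT2 2.0.4, UMI-tools, StringTie 1.3.4d and cutadapt 1.9, with no role or order. The sources used here do not state build, strand setting or use of molecular identifiers. Among gene identifiers 99.5% occur in GENCODE M21 (GRCm38), with 93.8% at the same coordinates. Those of Furin differ.

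The comparison used edgeR 4.0.16 under R 4.3.3. Low genes were removed by filterByExpr (minimum count 10, total 15), and libraries scaled by TMM. A quasi-likelihood model of MI or Sham gave 2-sided p-values, adjusted by Benjamini-Hochberg over 18475 genes, with 0.05 as threshold. CPM are TMM-scaled. SEs are the log2 difference over the square root of F. limma 3.58.1 and DESeq2 1.42.0 served as alternatives. The edgeR, DESeq2 and limma fits of MI against Sham were tried on simulated counts with known changes. Fits with a library left out, the motif search and the other descriptive steps were not. The simulated spread between libraries was smaller than that estimated here, so the trial does not show how the fits behave at the spread of these libraries. Nothing states that the libraries came from separate animals, so p-values measure only the spread among these 4 libraries, possibly a technical one. At n = 2 against 2 no exact permutation test can reach 0.05, so models that pool the spread over genes were used. Promoters are RefSeq's (GRCm38.p6), present for all 8 genes.

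The members, gene lists and tests were chosen with earlier results of these data known. The planned ratios were Nppb to Nppa, Npr1 to Npr3, Npr2 to Npr3 and Corin to Furin, and the other ratios were not planned. Genes named are the 8 members. Of each pathway list they are the 2 of highest mean FPKM and those at an unadjusted p under 0.05. Marker genes, genes within 100 kb of Nppa or Nppb and the 5 of most alike pattern complete them. Others are said to have been chosen after their values were seen. A neighbouring gene that the rule names is not reported here.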

Additional observations from a re-analysis of the deposited data

How the results depend on the processing

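Of 98 values of the 7 tested genes under 14 alternatives, 87 kept their sign and their side of the threshold, 10 changed sign and 1 passed it (Nppb in DESeq2, 1.64). Leaving out 1 library at a time gave -0.80 to 3.58 for Nppa, -1.29 to 0.50 for Npr3, -0.39 to 0.064 for Corin and -0.25 to 0.0073 for Furin. In limma on log2(FPKM + 1) and + 0.1, Corin was 0.046 and 0.047 and Furin 0.088 and 0.097, while Nppa was 1.59 and 1.60 and Npr3 -0.19 and -0.20. Scaled to total counts without mitochondrial genes, an alternative chosen after seeing the data, Furin was 0.015. The causes of the sign changes were not tested. Genes called numbered 635 in DESeq2 and 0 to 10 with a library left out, and those at an unadjusted p under 0.05 numbered 844 to 3110, against 2150. Of the last, 61.2% were higher in MI, 86.9% in limma on log2(FPKM + 1) and 82.0% with the total scaling. The processing list's median was 0.30 in limma with a pseudocount of 0.1, 0.26 with the total scaling and -0.23 to 0.33 with a library left out. That of the other cyclases was 0.46 at a mean FPKM of at least 1 and 0.43 with counts divided by 4 (2 genes tested in each), and -0.020 to 0.61 with a library left out. That of the effectors was -0.040 to 0.34 with a library left out, and that of the regulators 0.19 in limma with a pseudocount of 0.1 and -0.21 to 0.08 with a library left out. With the replicate number as a block, 0 genes were called and 1554 had an unadjusted p under 0.05. Nppa was then 1.38 and Nppb 1.91. Nothing says that the numbers pair the libraries, and deviations of same-numbered libraries correlated at -0.04. With 2 libraries a group, the interval for Nppa is too wide to show its direction.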
